A study of Mus musculus with 20 samples.

Results

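The genes described here are 7 known or proposed target genes of the transcription factor p53 that act in metabolism, transport, detoxification and secreted stress signals, namely Sesn1, Sesn2, Gdf15, Ephx1, Slc19a2, Zmat3 and Sulf2. They were taken by their symbols from the sense-strand gene count table of the series, which holds 21078 genes, and each symbol matched 1 gene. The table comes from RNA sequencing of the thoracic aorta of 20 wildtype male C57BL/6 mice aged 10 to 12 weeks. Of these, 10 were assigned to high energy protons (Proton) and 10 to gamma rays (Gamma). The total-body dose was 0, 5, 10, 25, 50, 75, 100, 125, 150 or 200 cGy, and all mice were killed 4 h later. The mouse at 0 cGy of each radiation type was a sham control, restrained in the irradiator without exposure. Because only 1 mouse of a radiation type received a given dose, a dose has no replicate and every p-value rests on the spread of single mice around a trend or between the pair of mice at a dose. Totals per library were 6051657 to 6058006 counts, a depth at which 3 counts are 4.95e-05% of a library.

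p53 is stabilized after DNA damage and activates genes that carry a p53 response element, a pair of similar short sequence units. Beside its targets in cell cycle arrest and apoptosis it controls genes that adjust metabolism. Sestrins (Sesn1, Sesn2 and their relative Sesn3) restrain the growth kinase complex mTORC1, and Sesn2 is also a leucine sensor. GDF15 is a secreted hormone that curbs appetite, and its gene, like Sesn2, also answers to the stress factor ATF4. EPHX1 is the microsomal hydrolase that opens reactive epoxides. SLC19A2 is a high affinity carrier of thiamine (vitamin B1). ZMAT3 is an RNA-binding zinc finger protein that takes part in splicing and RNA stability, and SULF2 is an extracellular enzyme that removes sulfate groups from heparan sulfate.

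These genes are known or proposed targets of p53, so the closest matches to its response element are shown for those members that had one. The 5 kb on either side of each annotated transcript start (mm9, GENCODE M1) were searched on both strands for a pair of adjacent units of 10 bases each that match the p53 consensus, with at most 2 mismatches in the 20 bases and with the core C and G of each unit kept. Of the 7 genes, 2 had such a match, against 18.1% of the 13124 genes tested for expression and against 6 of 15 in a list of other p53 target genes. The sequences are given in the direction of the gene, with the bases that match the consensus in capitals. The Zmat3 match without a mismatch lies in an intron, its other match lies upstream of the gene, and the Gdf15 match lies in an exon.
Zmat3, chr3:32263253-32263272, intron, 1119 bases after a transcript start, minus strand gene, 0 mismatches: gtgagAAACAAGCCCAGGCATGTCTtggga
Zmat3, chr3:32269073-32269092, 4483 bases before a transcript start, 1 mismatch: ttggaGAGCAAGTCTGGGCTTGTTagttta
Gdf15, chr8:73155865-73155884, exon, 119 bases after a transcript start, minus strand gene, 1 mismatch: aggggtGACTTGCCTGAACTTGCCTtttct
The coordinates are those of the 20 bases, distances are taken to their centre, and 5 more bases are printed on each side. The other 5 genes had no match of this kind in the window, which says only that these letters were not found there.

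RefSeq promoter windows, 250 bases before to 50 bases after a gene's start on GRCm38.p6, a later build than that of the counts, were found by symbol for 6 of the 7 genes, 9 windows in all. Allowing up to 13 spacer bases between the units, 1 window of Sesn1 (chr10:41887189-41887488, plus strand) held a p53 match with 2 mismatches and a spacer of 3 bases, from 186 to 164 bases before the start. Its capitals mark the bases that match the consensus.
Sesn1: tggGcGCTTGgCCttcAAGCTTGTTTttg
Such a match was present in 4.09% of the 32851 windows searched. The antioxidant response element TGACNNNGC was found in the window of Sesn2 and in 12.4% of all windows. TATAAA was found in the window of Ephx1, in 1 window of Sulf2 and in 13.6% of all windows. The ATF4 element TGATGNAA was found in none of the 9 windows and in 3.97% of all windows. Both strands were searched for every motif, and a match is a description of the letters, not a site of binding.

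The 7 genes covered a wide range of expression. Per kilobase of exon, the mean over the 20 mice was highest for Ephx1, with 821.2 counts, then Sulf2 with 291.0 and Sesn1 with 163.3. Zmat3 with 30.6, Slc19a2 with 25.2 and Sesn2 with 25.1 were close to each other, and Gdf15 was lowest with 10.6. All 7 had a mean count of at least 5, the minimum for a test.

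Ephx1, Slc19a2 and Sesn2 rose with dose after both proton and gamma radiation. Gdf15 passed the test after proton radiation only, and Zmat3, with a small rise, after gamma radiation only. Their slopes in the other radiation type were also above 0 (1.06 for Gdf15 after gamma and 0.25 for Zmat3 after proton radiation). A difference between the radiation types was not shown for either gene, and the Zmat3 call was lost with a correction for GC content and gene length. Sesn1 and Sulf2 did not pass the test in either radiation type. The log2 slope of the count per 100 cGy came from a quasi-likelihood fit in edgeR over all 13124 genes, with an intercept and a slope for each radiation type, and a gene was called at a Benjamini-Hochberg adjusted p under 0.1. By this rule 4 of the 7 genes rose after proton radiation, against 1.60% of all tested genes, and 4 of the 7 rose after gamma radiation, against 5.44%. None of the 7 fell, against 0.160% of all genes after proton and 2.21% after gamma radiation. The median slope of the 7 genes was 0.79 after proton and 0.69 after gamma radiation, and that of all tested genes was 0.00 and 0.01. The 7 genes were chosen with earlier results of these data known, so their excess over all genes is a description and not a test.

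**Figure D1:**
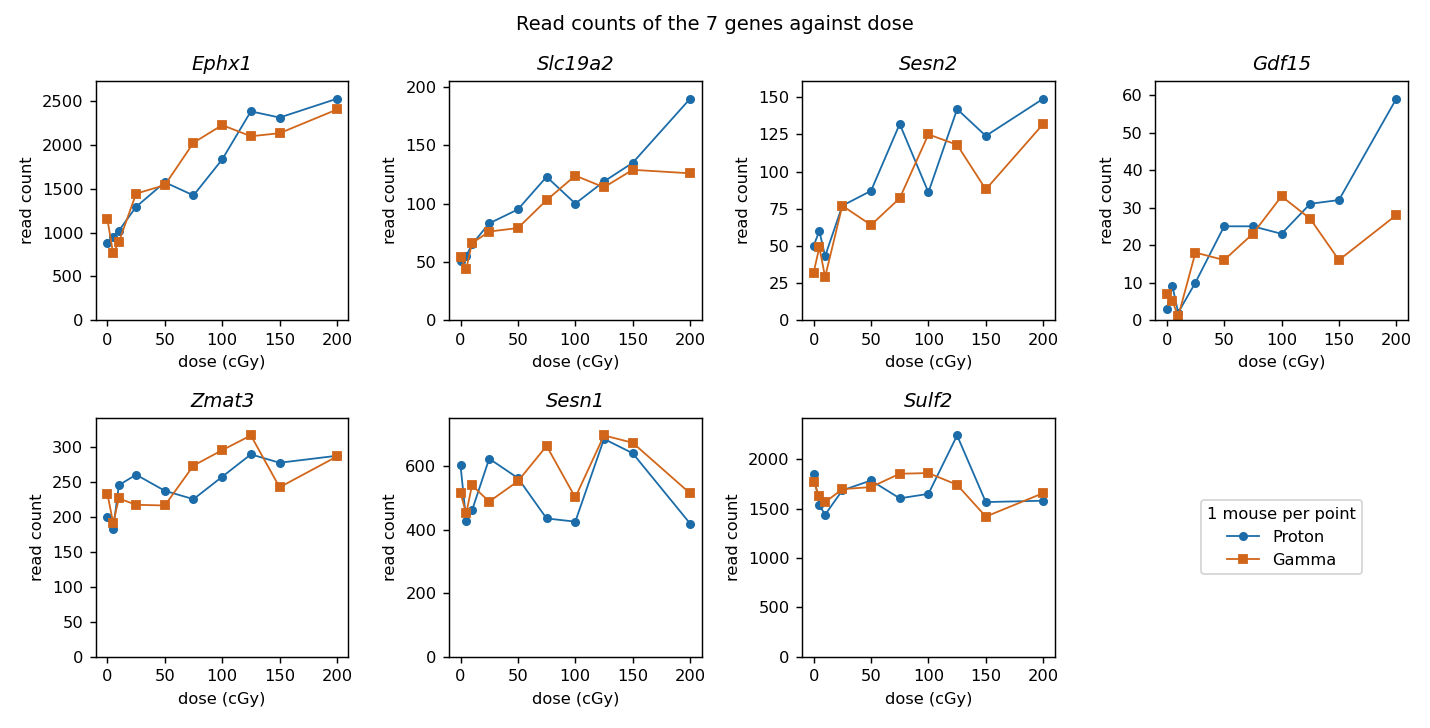
Read counts of the 7 genes (vertical axes from 0, one scale per gene) against dose in cGy, with 1 mouse per point, proton mice as blue circles and gamma mice as orange squares. Ephx1, Slc19a2, Sesn2 and Gdf15 are higher at 25 cGy and above than at 0 to 10 cGy in both radiation types (0.808% and 1.71% of all tested genes after proton and gamma radiation), Zmat3 is higher in the upper doses by less, and Sesn1 and Sulf2 show no order by dose.

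Ephx1 (ENSMUSG00000038776, chromosome 1, 182906286 to 182951035 on mm9, minus strand) encodes the epoxide hydrolase. From 0 to 200 cGy in order of dose, its counts in proton mice were 885, 954, 1022, 1295, 1576, 1426, 1837, 2387, 2316 and 2531. In gamma mice they were 1153, 762, 893, 1446, 1543, 2028, 2230, 2102, 2137 and 2408. In both radiation types every mouse given 25 cGy or more had a higher count than every mouse given 0 to 10 cGy, which held for 0.808% of all tested genes after proton and 1.71% after gamma radiation. The slope was 0.79 (SE 0.11) per 100 cGy after proton radiation, with an edgeR adjusted p of 0.00115, and 0.71 (SE 0.12) after gamma radiation, with an edgeR adjusted p of 0.00338. The count at 200 cGy was 2.86 times that at 0 cGy after proton radiation (95% interval 2.65 to 3.09) and 2.09 times after gamma radiation (1.95 to 2.24). These intervals, exact for the ratio of 2 counts, cover counting error only. Each ratio sets 1 mouse against 1 mouse, so the spread between mice is left out, and the reads carry no molecular identifiers. The intervals are therefore no comparison of the radiation types.

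Slc19a2 (ENSMUSG00000040918, chromosome 1, 166179177 to 166195516, plus strand), the thiamine carrier, had the smallest p of the 7 genes after proton radiation. Its counts in order of dose were 51, 55, 65, 83, 95, 123, 100, 119, 135 and 190 in proton mice. In gamma mice they were 54, 44, 66, 76, 79, 103, 124, 114, 129 and 126. The groups from 25 cGy upward and from 0 to 10 cGy did not overlap in either radiation type, and 8 of the 9 steps between neighbouring doses were upward in proton mice. The slope was 0.82 (SE 0.11, edgeR adjusted p 0.00066) after proton and 0.69 (SE 0.11, edgeR adjusted p 0.00338) after gamma radiation. At 200 cGy the count was 3.73 times that at 0 cGy after proton radiation (2.72 to 5.18) and 2.33 times after gamma radiation (1.68 to 3.27).

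Sesn2 (ENSMUSG00000028893, chromosome 4, 132047947 to 132066416, minus strand), the leucine-sensing sestrin, was lowest at 10 cGy and highest at 200 cGy in both radiation types. In order of dose its counts were 50, 60, 43, 77, 87, 132, 86, 142, 124 and 149 in proton mice. Those of gamma mice were 32, 49, 29, 77, 64, 82, 125, 118, 88 and 132. Again every mouse from 25 cGy upward exceeded every mouse from 0 to 10 cGy. The slope was 0.80 (SE 0.18, edgeR adjusted p 0.0466) after proton and 0.88 (SE 0.18, edgeR adjusted p 0.0151) after gamma radiation. The gene Gm12981 is annotated on the same strand within this interval, so how reads were divided between these genes is uncertain. After proton radiation the call was lost without the mouse at 10, 150 or 200 cGy, with edgeR adjusted p of 0.113, 0.126 and 0.239.

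Gdf15 (ENSMUSG00000038508, chromosome 8, 73153292 to 73156355, minus strand), the secreted stress hormone, had few counts and the steepest slopes of the 7 genes. Proton mice had counts of 3, 9, 2, 10, 25, 25, 23, 31, 32 and 59 from 0 to 200 cGy. Gamma mice had counts of 7, 5, 1, 18, 16, 23, 33, 27, 16 and 28. From 25 cGy upward every mouse was above every mouse at 0 to 10 cGy, as in 0.808% of all tested genes after proton and 1.71% after gamma radiation. In proton mice this was by a narrow margin, with 10 counts at 25 cGy against 9 at 5 cGy. The highest count in gamma mice was at 100 cGy. After proton radiation the slope was 1.61 (SE 0.36, edgeR adjusted p 0.0466), the seventh steepest rise of the 13124 genes. After gamma radiation it was 1.06 (SE 0.39) with an edgeR adjusted p of 0.13, which missed the threshold. The count at 200 cGy was 19.7 times that at 0 cGy in proton mice, with a counting interval of 6.41 to 98.1 that reflects the 3 counts at 0 cGy, and 4 times in gamma mice (1.71 to 10.8). Without the proton mouse at 10, 150 or 200 cGy the proton call was lost (edgeR adjusted p 0.107, 0.12 and 0.512). Without the pair at 75 cGy the gamma slope passed (edgeR adjusted p 0.0986), as it did with 1 surrogate variable (0.0707). Of 13 alternative settings the gamma slope passed in 4, and of the 20 fits without 1 mouse in 1.

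Zmat3 (ENSMUSG00000027663, chromosome 3, 32233718 to 32264600, minus strand), the RNA-binding protein gene and the one with the closest p53 match above, changed little. Its counts were 200, 182, 245, 260, 237, 225, 257, 289, 277 and 287 in proton mice in order of dose. In gamma mice they were 233, 191, 226, 217, 216, 273, 295, 316, 242 and 286. All 3 mice at 125, 150 and 200 cGy were above all 3 at 0, 5 and 10 cGy in each radiation type. This order is not rare: 7.48% of the tested genes showed it in proton mice and 12.5% in gamma mice. Zmat3 counts at the doses in between overlapped with those of these mice. The slope was 0.25 (SE 0.07, edgeR adjusted p 0.118) after proton radiation, which missed the threshold, and 0.24 (SE 0.07, edgeR adjusted p 0.0794) after gamma radiation, which passed it. With each library corrected for GC content and gene length the slopes were 0.11 (edgeR adjusted p 0.91) and 0.08 (edgeR adjusted p 0.845). The gamma call was also lost in 10 of the 20 fits that left out 1 mouse, without a filter on low counts (edgeR adjusted p 0.128), with dose as log2(dose + 1) (0.411) and over 0 to 125 cGy (0.277).

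Sesn1 and Sulf2 are the members with no call. Sesn1 (ENSMUSG00000038332, chromosome 10, 41530380 to 41628230, plus strand) had 419 to 685 counts in proton mice, with a median of 511.0, and 451 to 696 in gamma mice, with a median of 526.5. Its lowest proton count was at 200 cGy and its highest was at 125 cGy in both radiation types. The slope was 0.01 (SE 0.12, edgeR adjusted p 0.991) after proton and 0.14 (SE 0.12, edgeR adjusted p 0.598) after gamma radiation. Slopes up to 0.24 and 0.38 per 100 cGy lie within 2 SE of these values.

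Sulf2 (ENSMUSG00000006800, chromosome 2, 165898589 to 165981163, minus strand) ranged from 1439 to 2242 counts in proton mice, with a median of 1627.5, and from 1420 to 1861 in gamma mice, with a median of 1708.5. Its highest proton count was at 125 cGy and its lowest gamma count at 150 cGy. The summed fibroblast markers were highest among proton mice (5230 CPM, counts scaled to library size) and lowest among gamma mice (1640 CPM) in these same mice, and over the 20 mice their deviations from the dose line correlated with those of Sulf2 at 0.78. The slope was 0.04 (SE 0.07, edgeR adjusted p 0.892) after proton and -0.03 (SE 0.07, edgeR adjusted p 0.896) after gamma radiation. At these counts, counting error was 0.0353 on the log2 scale in proton mice, while the SD of the mice around the dose line was 0.19. Ncoa3 overlaps Sulf2 on the other strand, and the counts are of the sense strand.

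**Figure D2:**
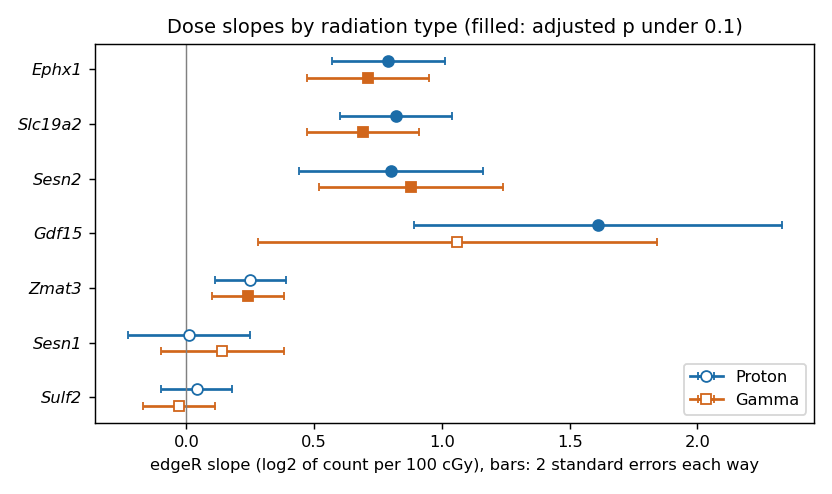
Slope of the log2 count per 100 cGy (horizontal axis) for the 7 genes after proton (blue circles) and gamma radiation (orange squares), with bars of 2 standard errors each way and filled symbols for an adjusted p under 0.1. Ephx1, Slc19a2 and Sesn2 lie between 0.69 and 0.88 in both radiation types, Gdf15 has the widest bars, and Sesn1 and Sulf2 lie near 0.

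A test that asks only for the order of the counts gave a similar picture with fewer genes. Spearman's correlation of count with dose, with an exact one-sided permutation p, adjusted over all 13124 genes, called 3 of the 7 genes after proton radiation, against 0.198% of all genes, and 3 after gamma radiation, against 1.90%. Ephx1 had a rho of 0.976 over the 10 proton mice (exact permutation p 1.0e-05, adjusted 0.0275) and of 0.927 over the 10 gamma mice (p 0.000167, adjusted 0.0348). Slc19a2 had a rho of 0.964 in both radiation types (exact permutation p 2.5e-05, adjusted 0.0347 after proton and 0.02 after gamma radiation). The third gene differed. It was Gdf15 after proton radiation, with a rho of 0.924 (exact permutation p 0.000174, adjusted 0.0879) against 0.736 after gamma radiation (p 0.00939, adjusted 0.178). The proton call of Gdf15 was lost with counts scaled by TMM (exact permutation adjusted p 0.106) and without the filter on low counts (0.136). It was Sesn2 after gamma radiation, with a rho of 0.903 (exact permutation p 0.000404, adjusted 0.0525) against 0.879 after proton radiation (p 0.0008, adjusted 0.21). Zmat3 had a rho of 0.806 and 0.697 (exact permutation adjusted p 0.469 and 0.208).

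Pearson correlations with dose, each with 100000 permutations, were 0.966 and 0.905 for Ephx1, 0.954 and 0.92 for Slc19a2, 0.886 and 0.864 for Sesn2 and 0.947 and 0.735 for Gdf15 after proton and gamma radiation (permutation p 1.0e-05, 4.0e-05, 3.0e-05, 7.0e-05, 0.00062, 0.00093, 4.0e-05 and 0.00798 in that order). The value 1.0e-05 is the smallest that these permutations can give. Without the mice at 150 and 200 cGy, the doses farthest from the median, the 8 remaining mice gave r of 0.957 and 0.926 for Ephx1, 0.895 and 0.946 for Slc19a2, 0.862 and 0.925 for Sesn2 and 0.911 and 0.902 for Gdf15, with permutation p from 0.00024 to 0.00584. With these 8 mice no gene at all passed the adjusted threshold of the rank test (642 genes rose at an unadjusted permutation p under 0.05 after proton and 1290 after gamma radiation). With 8 doses the smallest p that the exact test can give does not pass this threshold for a single gene. The missing calls therefore do not show that a trend is absent. In edgeR over 0 to 125 cGy, Ephx1 kept its call after proton radiation (slope 0.99, edgeR adjusted p 0.035), and Ephx1, Slc19a2 and Sesn2 kept theirs after gamma radiation (slopes 1.04, 0.97 and 1.37, edgeR adjusted p 0.0156, 0.041 and 0.0555). The proton calls of Slc19a2 (slope 0.89, edgeR adjusted p 0.128), Sesn2 (1.11, 0.319) and Gdf15 (2.14, 0.736) were lost. The 4 libraries left out by this restriction stood apart. Across genes, the deviation of a gene from its own mean correlated with its GC content at -0.401 to -0.349 in them, against -0.0182 to 0.284 in the other 16, and dose and this difference cannot be told apart there.

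Between the lowest and the highest doses, 5 of the 7 genes did not overlap: for Sesn2, Gdf15, Ephx1, Slc19a2 and Zmat3 the mice at 125, 150 and 200 cGy were all above those at 0, 5 and 10 cGy in both radiation types. Among all tested genes this held in 7.48% after proton and in 12.5% after gamma radiation. The mean count of Ephx1 at 0, 5 and 10 cGy was 954 ± 68.5 (SD, n = 3) in proton mice and 936 ± 199 in gamma mice, and that of Gdf15 was 4.67 ± 3.79 and 4.33 ± 3.06. The ratio of the mean at 125 to 200 cGy over that at 0 to 10 cGy was 2.53 and 2.37 for Ephx1, 2.6 and 2.25 for Slc19a2, 2.71 and 3.07 for Sesn2, and 8.71 and 5.46 for Gdf15 after proton and gamma radiation. It was 1.36 and 1.3 for Zmat3, 1.17 and 1.25 for Sesn1 and 1.12 and 0.971 for Sulf2. At 5 and 10 cGy, Ephx1 was higher at both doses in proton mice (954 and 1022 against 885) and lower at both in gamma mice (762 and 893 against 1153). Sesn2 was above the 0 cGy mouse at 5 cGy and below it at 10 cGy in both radiation types, and Sulf2 was below it at both doses in both. All these directions rest on the 1 mouse at 0 cGy of each radiation type and were not tested. An opposite response of Ephx1 to low doses of the radiation types is therefore not shown.

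In the main fit the slope of Ephx1 lessened at the upper doses, which include the 4 libraries with the GC difference named above. Dose and this difference cannot be told apart there, and the fit below was not run with the GC and length correction. A quadratic dose term common to both radiation types was -0.40 (SE 0.11, edgeR adjusted p 0.068) on the log2 scale per squared 100 cGy, the 1 call among the 7 genes, against 1.71% of all genes with a lessening and 3.62% with a growing slope. The term was -0.32 (edgeR adjusted p 0.133) for Slc19a2, -0.51 (0.134) for Sesn2 and -0.97 (0.164) for Gdf15, which missed the threshold. Ephx1 missed it too without the pair at 75 cGy (edgeR adjusted p 0.103) or without the proton mouse at 5, 125 or 200 cGy or the gamma mouse at 75, 100 or 200 cGy (0.103 to 0.185).

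Proton and gamma radiation were compared directly in 2 ways, and no member differed by either. The difference of the slopes, proton minus gamma, was called in none of the 7 genes and in 0.00% of all tested genes by edgeR, with 254 genes at an unadjusted p under 0.05, and DESeq2 likewise called none. With an interval of 2 SE each way it was 0.08 (-0.25 to 0.42) for Ephx1, 0.13 (-0.19 to 0.45) for Slc19a2, -0.08 (-0.60 to 0.43) for Sesn2 and 0.55 (-0.56 to 1.66) for Gdf15. The intervals of Zmat3 (-0.20 to 0.22) and Sulf2 (-0.13 to 0.28) were the narrowest. A steeper Gdf15 slope after proton radiation was therefore not shown, and differences within these intervals are not excluded.

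At matched doses, with dose as a block, 0 of the 7 genes and 0.00% of all genes were called by edgeR, with 1032 genes at an unadjusted p under 0.05. DESeq2 called 17 genes higher and 53 lower after proton radiation, and none of the 7 was among them. Sesn2 came nearest, with a difference of 0.27 (SE 0.11, p 0.0252, edgeR adjusted p 0.541) and a higher count after proton radiation in 8 of 10 pairs, the pair at 0 cGy included. For Ephx1 the difference was -0.06 (-0.21 to 0.10) and for Slc19a2 0.12 (-0.05 to 0.28), with proton mice higher in 6 and 7 of 10 pairs. For Sulf2 it was -0.02 (-0.13 to 0.09).

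Sesn2 and Gdf15 also varied together from mouse to mouse after dose was taken out, and the values of the other pairs were lower. The correlation of log2(count + 1) over the 20 mice was 0.911 for Sesn2 with Gdf15, 0.925 for Ephx1 with Slc19a2 and at most 0.398 for Sesn1 with any other member. The mice share a dose series, which alone makes rising genes correlate, so a dose line was taken out for each gene and radiation type. The value for Sesn2 with Gdf15 was then 0.827, the highest of the 21 pairs, and 0.75 after a curve in dose was taken out in place of a line. That for Ephx1 with Slc19a2 was 0.64 after the line and 0.317 after the curve. After the curve, Gdf15 with Ephx1 gave 0.528, Sesn2 with Ephx1 0.188, Sesn2 with Slc19a2 0.185, Gdf15 with Slc19a2 0.151, and Zmat3 -0.103 with Sesn2 and -0.129 with Gdf15. These values describe 20 mice and were not tested.

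**Figure D3:**
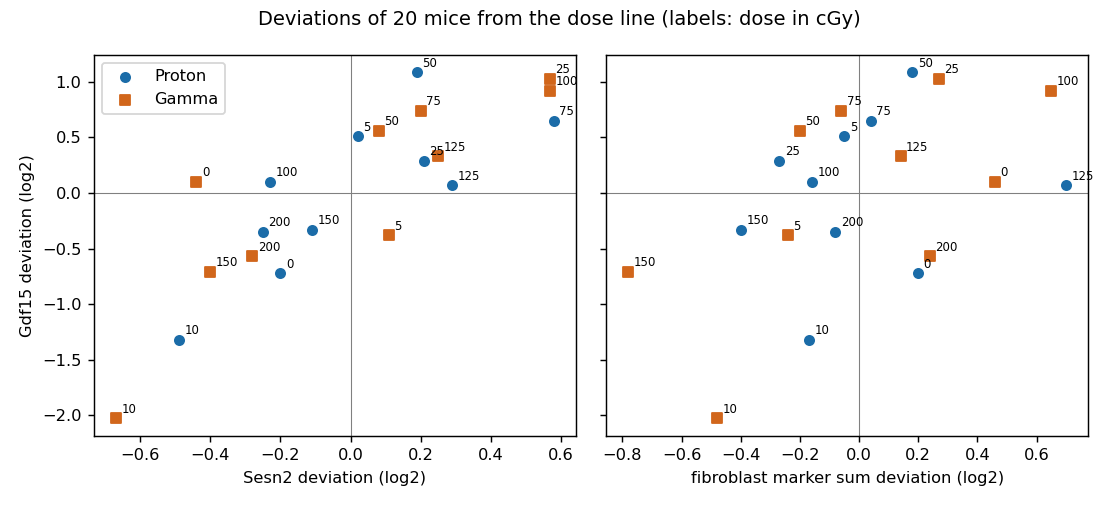
Deviation of log2(count + 1) from the dose line of its radiation type for Gdf15 (vertical axis) against that of Sesn2 (left) and of the summed fibroblast markers (right, log2 of CPM + 1), for 20 mice labelled with their dose in cGy (blue circles proton, orange squares gamma). Both mice at 10 cGy are lowest for Gdf15 (-1.32 and -2.03) and for Sesn2 (-0.49 and -0.67), and the correlation is 0.827 in the left and 0.477 in the right panel.

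Both mice given 10 cGy had the lowest Sesn2 count and the lowest Gdf15 count of their radiation type. Around the dose line, the proton mouse at 10 cGy was at -0.49 for Sesn2 and -1.32 for Gdf15, and the gamma mouse at -0.67 and -2.03. The red blood cell markers were also lowest in these mice, at 23 and 17.8 CPM, against up to 1280 in proton and 1880 in gamma mice. They were nearly as low in the proton mouse at 25 cGy (28.4) and in the gamma mice at 125 and 150 cGy (33 and 18.2). In those mice Gdf15 deviated from the dose line by 0.29, 0.33 and -0.71. Of the 9 marker lists, the deviations of Gdf15 from the dose line correlated most with fibroblast (0.477), red blood cell (0.471) and lymphocyte markers (0.426), and those of Sesn2 with brown fat (0.496) and fibroblast markers (0.474). With the red blood cell score as a covariate, a setting chosen after the data were seen, the slopes after proton and gamma radiation were 0.74 and 0.87 for Sesn2 (edgeR adjusted p 0.0386 and 0.0106) and 1.51 and 1.05 for Gdf15 (edgeR adjusted p 0.031 and 0.0859). With the fibroblast score, chosen likewise, they were 0.85 and 0.93 for Sesn2 and 1.72 and 1.18 for Gdf15 (edgeR adjusted p 0.0198 and 0.0807). The gamma slope of Gdf15 thus passed the threshold with either score. It missed the threshold with the endothelial score (edgeR adjusted p 0.147), the brown fat score (0.104) and the GC and length correction (0.122). The SD of the mice around the line was 0.747 and 0.998 for Gdf15, of which counting error alone would give 0.45 and 0.479. For Ephx1 it was 0.189 and 0.323, against 0.0383 and 0.038 from counting.

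For each of the 7 genes, the 3 genes most like it were sought by Pearson correlation of log2(count + 1) over the 20 mice, among 9817 genes whose mean count reached 50. For Ephx1 these were Bax (0.967), Cdkn1a (0.958) and Aen (0.955), all established p53 targets of apoptosis or cell cycle arrest. For Slc19a2 they were Ccng1 (0.959), Eda2r (0.958) and 9030617O03Rik (0.958). Sesn2 was closest to 9030617O03Rik (0.918), Dcxr (0.899), the dicarbonyl and xylulose reductase, and Ei24 (0.89). The closest to Gdf15 were Sesn2 (0.911), Ephx1 (0.882) and Homer3 (0.877), and to Zmat3 1810063B07Rik (0.868), Ephx1 (0.832) and 4933426M11Rik (0.821). The genes nearest to Sesn1 (Peli1, 0.8, Stk17b, 0.777, and Blmh, 0.776) and to Sulf2 (Tm7sf3, 0.824, Ube2q1, 0.819, and Dchs1, 0.79) included no member and no gene of the p53 list. The mice share dose and library properties in all these values.

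Other genes of the same pathways were taken from lists and are given as counts beside the background above. Of 15 tested p53 target genes of other functions, p53 itself (Trp53) included, 9 rose after each radiation type and none fell, with a median slope of 0.48 in both. The smallest p-values belonged to Aen (0.99 and 0.99 after proton and gamma radiation), Ccng1 (0.95 and 0.84), Mdm2, the gene of the ubiquitin ligase that degrades p53 (0.40 and 0.42), and Btg2 (0.91 and 0.48). Of 19 other genes linked to p53 in metabolism, Dcxr rose after proton radiation (0.67, edgeR adjusted p 0.0143), and Dcxr (0.91, edgeR adjusted p 0.00117) and Cpt1c, a carnitine palmitoyltransferase relative (0.32, edgeR adjusted p 0.0504), rose after gamma radiation. The medians of that list were 0.08 and 0.10. Ddit4, a further inhibitor of mTORC1 signalling, had slopes of 0.63 and 0.66 (edgeR adjusted p 0.182 and 0.104) that missed the threshold, though DESeq2 called the gamma slope.

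**Figure D4:**
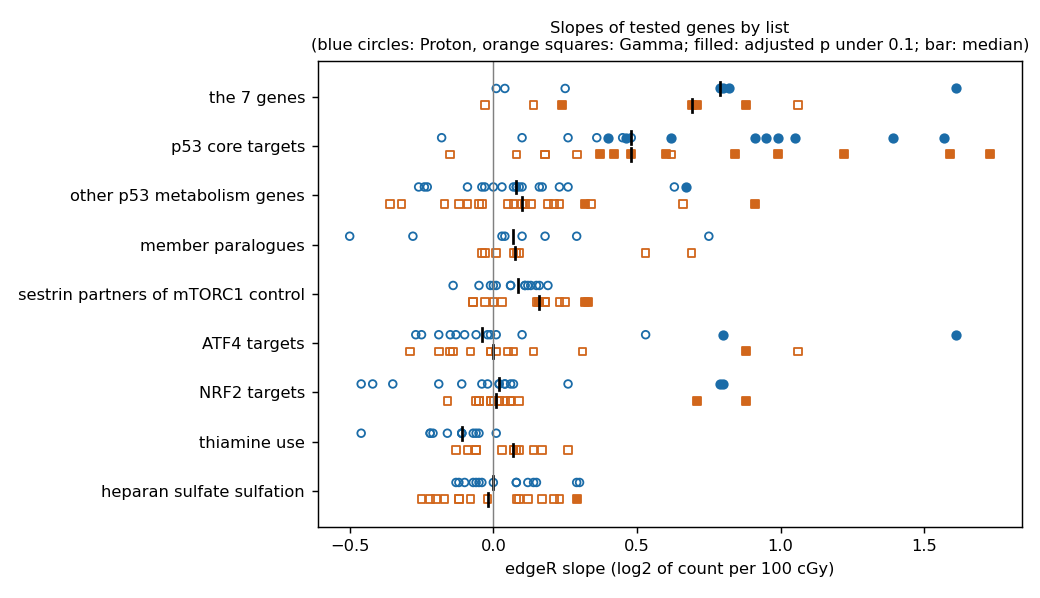
Slopes per 100 cGy (log2, horizontal axis) of the tested genes of 9 lists, 1 symbol per gene, with proton slopes as blue circles and gamma slopes as orange squares, filled for an adjusted p under 0.1, and a bar at the median. Most filled symbols belong to the 7 genes and the other p53 targets, and the filled symbols in the ATF4 and NRF2 lists are Sesn2, Gdf15 and Ephx1 themselves.

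Of 8 tested relatives of the 7 genes, none was called in either direction by edgeR or by DESeq2 (2 after proton and 1 after gamma radiation had an unadjusted edgeR p under 0.05), with median slopes of 0.07 and 0.08. The third sestrin, Sesn3, had slopes of 0.75 and 0.69 (edgeR adjusted p 0.246 and 0.196). Its counts were 29 and 32 at 150 and 200 cGy in proton mice and 26 and 28 in gamma mice, against 7 to 15 and 3 to 14 at the lower doses, so the higher counts lie in the 4 libraries with the GC difference named above. Its quadratic term of 1.06 (edgeR adjusted p 0.0878) passed the threshold with a growing slope, opposite in sign to that of Ephx1. The carriers of the family of Slc19a2, namely Slc19a1 for folate (-0.50 and 0.08) and Slc19a3 for thiamine (-0.28 and 0.07), and Sulf1 (0.29 and 0.09) missed the threshold.

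Of 14 tested genes through which sestrins act on mTORC1, none was called after proton radiation by edgeR or DESeq2 (2 at an unadjusted edgeR p under 0.05), and 3 rose after gamma radiation by edgeR and 4 by DESeq2. The 3 were Tsc1, a subunit of the complex that restrains mTORC1 (0.33, edgeR adjusted p 0.0183), and Prkaa2 (0.32, edgeR adjusted p 0.0243) and Prkaa1 (0.16, edgeR adjusted p 0.0608), the catalytic subunits of AMP-activated kinase. Mtor itself had slopes of 0.16 and 0.23 (edgeR adjusted p 0.518 and 0.197). The difference between radiation types was called in none of the 14. Of 12 tested genes of thiamine use, none was called by edgeR or DESeq2 and none had an unadjusted edgeR p under 0.05. Their median slopes were -0.11 and 0.07. Of 15 genes of heparan sulfate sulfation none was called after proton radiation by edgeR or DESeq2 (2 at an unadjusted edgeR p under 0.05). After gamma radiation edgeR called 1 of the 15, against 5.44% of all tested genes that rose. It was Glce, an epimerase of heparan sulfate (0.29, edgeR adjusted p 0.0981). DESeq2 called 2 of the 15 after gamma radiation, and 4 had an unadjusted edgeR p under 0.05.

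Sesn2 and Gdf15 are also targets of ATF4, and Sesn2 and Ephx1 of the antioxidant factor NRF2, so these lists were set beside them. Of 14 tested ATF4 targets 2 rose after proton radiation, Sesn2 and Gdf15, and 1 after gamma radiation, Sesn2. The other 12 were not called by edgeR, and DESeq2 called 1 further gene, Atf5, lower after gamma radiation. Of 16 tested NRF2 targets 2 rose after each radiation type, and these were Ephx1 and Sesn2. The median slopes were -0.04 and 0.00 for ATF4 targets and 0.02 and 0.01 for NRF2 targets, near those of all genes. Atf4 itself had slopes of -0.10 and -0.01 (edgeR adjusted p 0.454 and 0.948), and Atf3 of the same list 0.53 and 0.07 (0.378 and 0.949). The NRF2 target Gclc had slopes of 0.04 and 0.09 (edgeR adjusted p 0.856 and 0.433). The activity of ATF4 and NRF2 was not measured, and a role of either factor was not tested.

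The aorta is a mixed tissue, and in such bulk samples fewer cells of a type and less RNA per cell cannot be told apart. The smooth muscle markers Myh11, Acta2, Cnn1, Tagln and Smtn summed to 26500 to 53200 CPM in proton and 39300 to 53500 in gamma mice. The lowest value was that of the proton mouse at 75 cGy, whose brown fat (2380) and white fat (2710) markers were the highest of all mice, against 79.2 to 859 for brown fat in gamma mice. The 5 endothelial markers ranged from 348 to 1180 and from 347 to 1230 CPM, with no marker at 0 in all mice, and 0 of 5 were called in either radiation type, by edgeR or by DESeq2, with 0 at an unadjusted edgeR p under 0.05. Their median slopes were 0.35 and 0.25. With the endothelial score as a covariate, a setting chosen after the data were seen, 4 of the 7 genes were called in each radiation type as before, with slopes of 0.79 and 0.70 for Ephx1, 0.80 and 0.65 for Slc19a2 and 0.74 and 0.78 for Sesn2. With the brown fat score as a covariate 5 and 4 were called, and the slopes of Ephx1 were 0.80 and 0.70. The lymphocyte markers, 0 of 5 with a mean count of 5, summed to 0.33 to 3.64 and 0 to 7.1 CPM. None of the other markers (smooth muscle, fibroblast, fat, macrophage, skeletal muscle and red blood cell) was called by edgeR. DESeq2 called Smtn and the fibroblast marker Col1a1 lower after gamma radiation.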

How the data were processed

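The authors sequenced stranded, polyA-selected libraries as paired reads of 100 bases, aligned them to mm9 with STAR 2.5.2a, resampled them to one depth with PORT and deposited sense-strand counts per gene. CASAVA 1.8.1 is listed in the submitters' processing notes. Gene positions are from GENCODE M1. The intervals of the table extend 202 bases beyond them on each side.

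Genes whose mean count was 5 or more were fitted in edgeR 4.0.16 (R 4.3.3, TMM, robust quasi-likelihood), with Benjamini-Hochberg adjustment over all 13124 genes and a threshold of 0.1, the cut the study uses. The slope is two-sided, the rank trend one-sided and exact. The scripts were tested on simulated data. The alternatives were DESeq2 1.42.0, no TMM, other filters, dose scales and ranges, leaving out mice, a surrogate variable (sva 3.50.0), marker scores and a correction for GC content and length. Python 3.11.15 and scipy 1.17.1 were used. The members and lists were chosen with earlier results of these data known. From each list at most 4 genes with the smallest slope p are named. Atf4, Mtor, Slc19a1, Slc19a3 and the markers called by DESeq2 were added after their values were seen. Antisense counts were not used here.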

Additional observations from a re-analysis of the deposited data

How the results depend on the processing

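The number of the 7 genes called for the proton slope was 4, and over 0 to 125 cGy it was 1. Leaving out 1 mouse gave 2 to 5 genes for the proton slope, 3 to 5 for the gamma slope, 0 to 0 for the slope difference and 0 to 3 for the quadratic term. The quadratic term was called in 2 genes with DESeq2 and in 0 without the pair at 75 cGy, against 1. The rank trend over 0 to 125 cGy called 0 genes in each radiation type, against 3, with fewer mice and a smallest possible p that cannot pass for a single gene. The calls of Ephx1 were kept for both slopes under the 14 alternatives and the 20 fits without 1 mouse, and those of Slc19a2 under all but the proton fit over 0 to 125 cGy (0.128).

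Signs turned only for values that were not called. The Sesn1 proton slope was -0.0007 with log2(dose + 1) and -0.03 with the GC and length correction, and its proton rank trend was 0.00601 by Pearson correlation and 0.0476 over 0 to 125 cGy. The Sulf2 gamma slope was 0.07 over 0 to 125 cGy, and its gamma rank trend was 0.0303 after TMM scaling and 0.5 over 0 to 125 cGy. Over 0 to 125 cGy the slope difference was -0.14 for Zmat3, -0.04 for Ephx1 and -0.08 for Slc19a2, and the matched difference of Gdf15 was -0.05. The slope difference was -0.01 for Zmat3 without TMM and 0.06 for Sesn2 with the brown fat score. Leaving out 1 mouse gave proton slopes of -0.07 to 0.16 for Sesn1 and -0.02 to 0.11 for Sulf2, gamma slopes of -0.06 to 0.02 for Sulf2, and slope differences of -0.04 to 0.05 for Zmat3, -0.24 to 0.06 for Sesn2, -0.27 to 0.02 for Sesn1, -0.07 to 0.21 for Ephx1 and -0.04 to 0.22 for Slc19a2. The cause was not tested.

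Over all genes, 210 rose after proton and 714 after gamma radiation, with 22 and 38 on log2(dose + 1), 40 and 335 with dose as a rank, 13 and 29 over 0 to 125 cGy, 69 and 206 with the GC and length correction, 131 and 463 without a filter, 557 and 1249 with 1 surrogate variable and 327 and 1081 with the brown fat score. Counts of 1 to 9 for Gdf15 at 0 to 10 cGy limit its folds.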
